A study of Mus musculus with 2 samples.

Results

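The histone genes of mouse bone marrow (BM) stem and progenitor cells were taken from 2 RNA-seq libraries by gene symbol. Symbols starting with Hist1h to Hist4h were called clustered genes, and symbols starting with H2af, H3f3 or H1f were called variant genes, with names marked as pseudogenes by -ps left out. This gave 88 of 34745 genes, of which 70 were clustered and 18 were variant. The variant list also holds H3f3aos, which is an antisense RNA, and H3f3c and H2afy3, which the annotation lists as processed pseudogenes.

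LSKs (lineage-negative, Sca1+, c-Kit+ BM cells, which hold the hematopoietic stem and progenitor cells) were sorted from C57BL/6 mice carrying both Scl/tTA and TRE-BCR/ABL (BA). In this tet-off model the tTA driven by Scl elements switches on the CML (chronic myelogenous leukemia) fusion gene BCR/ABL once doxycycline is withdrawn. The week-0 library came from mice still on doxycycline and the week-3 library from mice 3 weeks after withdrawal, so both groups carried both transgenes. LSKs of 3 mice were mixed for each library, so that each time point has a single library (n = 1) and there is no measure of the spread between mice. The ages of the mice are not given in the sources used here.

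Nucleosomes are built from the core histones H2A, H2B, H3 and H4, with the linker histone H1 on the DNA between them. Clustered genes supply most of these proteins when DNA is replicated, and their mRNAs end in a short stem-loop, bound by the protein SLBP, in place of a poly(A) tail. Variant genes are transcribed through the whole cell cycle into ordinary polyadenylated mRNAs, and their proteins replace the replicative histones in chromatin outside S phase.

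The stem-loop marks the class to which a transcript belongs, and it was searched for in the GENCODE M21 transcripts (GRCm38) as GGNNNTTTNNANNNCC with pairing of the 3 inner stem bases. It was found in 42 of the 68 clustered genes that could be matched by identifier (61.8%), against 80 of 55450 genes in the whole annotation (0.144%). Of the 18 variant genes, H2afx, which encodes the histone phosphorylated at DNA breaks, was the single one with a stem-loop. The sequences below show the stem-loop of members described further on, from each histone family and from both ends of the range of reads, with the 16 bases of the stem-loop in capitals.
Hist1h1c: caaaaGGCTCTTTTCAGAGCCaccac
Hist1h1e: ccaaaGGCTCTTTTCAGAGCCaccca
Hist1h2ao: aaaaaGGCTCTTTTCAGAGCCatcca
Hist1h2bg: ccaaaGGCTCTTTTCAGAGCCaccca
Hist1h3f: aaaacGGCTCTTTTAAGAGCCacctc
Hist1h4i: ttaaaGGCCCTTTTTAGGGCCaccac
Hist4h4: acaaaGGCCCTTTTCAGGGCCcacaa
H2afx: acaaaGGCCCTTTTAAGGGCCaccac
They lie at chr13:23739507-23739532 (plus strand, Hist1h1c), chr13:23621777-23621802 (minus, Hist1h1e), chr13:21810893-21810918 (plus, Hist1h2ao), chr13:23571838-23571863 (plus, Hist1h2bg), chr13:23544927-23544952 (plus, Hist1h3f), chr13:22040961-22040986 (minus, Hist1h4i), chr6:136803993-136804018 (minus, Hist4h4) and chr9:44335235-44335260 (plus, H2afx). One sequence, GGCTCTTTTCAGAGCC, was shared by 24 of the 42 clustered genes, and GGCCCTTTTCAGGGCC by a further 7. Many of the 26 clustered genes without a match, such as Hist1h2ai with 393 bases, have gene models of coding length only, which hold no sequence past the coding part.

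The cDNA was made with the SMARTer Ultra Low Input kit, which primes on poly(A), so mRNAs without a tail are caught poorly by it and the clustered values below are not a measure of total histone mRNA. The libraries held 6356164 (week-0) and 3886695 (week-3) reads on genes, and 18002 and 17106 genes were above 0. A count of 0 allows up to 3 reads, or 0.472 CPM (reads scaled by the library total) for the week-0 and 0.772 CPM for the week-3 library. The intervals given below are 95% intervals for the counting error of reads only. Several reads of amplified cDNA can come from the same molecule, so the intervals can be too narrow for the counting of molecules. Kit, which encodes c-Kit and defines the sort, had 1391 and 580 reads and was not called, Ly6a, which encodes Sca1, had 434 and 199 and was not called, and Flt3, a receptor of early progenitors, was called lower with 6177 and 934 reads. Markers of other cells moved as well. All 4 tested mast cell markers and 4 of 5 neutrophil markers were called higher. The summed neutrophil markers went from 15127 to 37621 reads, mostly reads of Mpo (9443 and 18486) and Elane (5454 and 18391). Both genes were thus already abundant at week-0, and Ly6g, the neutrophil marker not called, had 5 reads in each library. Of the tested plasma and B cell markers, 3 of 5 were called lower, their sum going from 5475 to 103 reads. The T cell markers summed to 15 and 3 reads. The part of these cells in the histone values was not tested, and in sorted pools fewer cells of a kind and less RNA per cell cannot be told apart.

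Clustered genes that were called were nearly all called higher at week-3. A gene was called when edgeR's exact test, with an assumed biological coefficient of variation of 0.1, gave a Benjamini-Hochberg q under 0.05 over 15377 genes and the FPKM ratio was at least 2 or at most 0.5. This test compares the 2 libraries, not the conditions. Of the 70 clustered genes, 10 had no read, 53 were above 0 in both libraries and could be tested, 4 were at 0 at week-0 only and 3 at week-3 only, with at most 3 reads in the other library. Of the 53, 13 were called higher (24.5%) and 1 was called lower, where 8.11% of all tested genes were called higher and 10.1% lower. Of the 12 variant genes that could be tested, 1 was called in each direction. The calls rest on the assumed variation: with a coefficient of 0.2 the counts of clustered genes were 8 higher and 0 lower, and with 0.4 no histone gene was called.

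The 13 clustered genes called higher were genes with few reads, together 339 and 623 reads, or 3.37% and 8.35% of the clustered reads. They came from H2A (3 genes), H2B (5), H3 (3) and H4 (2), and none encoded H1. Among H3 genes, Hist1h3d went from 46 to 91 reads (log2 ratio of CPM 1.69, interval 1.17 to 2.24, q = 6.14e-06 by edgeR). Hist1h3e went from 55 to 85 reads (1.34) and Hist1h3f from 11 to 30 (2.16). These 3 encode the replicative H3 that is laid down behind the fork.

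The H2B genes called higher included the clustered gene with the smallest q, Hist1h2bq. It went from 50 to 103 reads (1.75, interval 1.25 to 2.27, q = 1.19e-06 by edgeR), and Hist1h2br from 32 to 58 (1.57). Both have gene models with 3 transcripts and hold few windows of 100 bases that occur in no other gene (5.16% and 13.6%), and each shares most with the other, so their reads cannot be assigned to one copy with certainty. Hist1h2bg went from 41 to 61 reads (1.28), Hist2h2be from 19 to 29 (1.32) and Hist1h2bk from 2 to 16 (3.71, interval 1.62 to 6.87). Hist1h2bk had the highest ratio of all histone genes with a read in both libraries, on 2 reads at week-0.

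Of the H2A genes, Hist1h2ac went from 18 to 35 reads (1.67), Hist1h2ak from 14 to 30 (1.81) and Hist2h2ac from 24 to 33 (1.17). Hist1h2ae missed the fold limit, with 59 and 72 reads (0.997). The H4 genes called higher were the single Hist4 gene, Hist4h4, with 10 and 24 reads (1.97, interval 0.86 to 3.20), and Hist2h4, with 17 and 28 (1.43). Hist2h2ac and Hist2h2be were not called when libraries were scaled by TMM or by median-of-ratios, and the remaining 11 were.

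Hist1h3i was the clustered gene called lower, with 178 reads before and 45 after withdrawal (fell by 1.27 on the log2 scale, interval -1.78 to -0.80, q = 0.000418 by edgeR). At week-0 it held more reads than any other clustered H3 gene. With a coefficient of variation of 0.2 it was not called. Only 31.4% of its windows of 100 bases occur in no other gene, and it shares most with Hist1h3h, so its reads cannot be assigned with certainty.

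**Figure D1:**
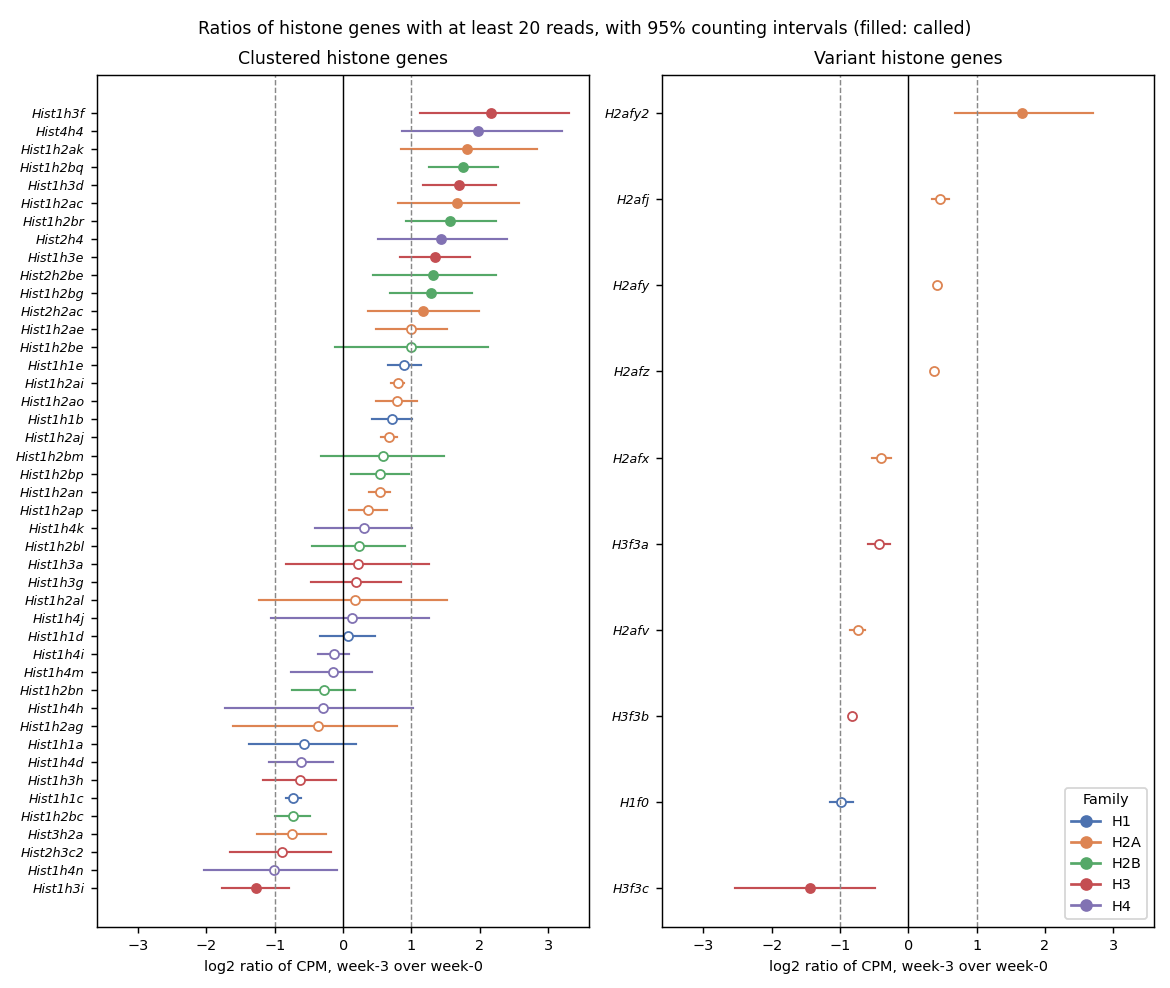
The x axis gives the log2 ratio of CPM, week-3 over week-0, for the 44 clustered (left) and 10 variant (right) genes with at least 20 reads over both libraries, coloured by histone family. Bars are 95% counting intervals, filled points are called genes and dashed lines mark the fold limits; the 12 called genes at the upper left run from Hist2h2ac (1.17) to Hist1h3f (2.16), and no H1 point is filled.

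Among clustered genes with at least 20 reads over both libraries, 30 were higher in CPM at week-3 and 14 were lower. Their counting interval lay above 0 for 21, below 0 for 8 and held 0 for 15 (all genes with as many reads: 34.3% above and 28.0% below). The median log2 ratio was 0.45 over a range of -1.27 to 2.16, against a median of 0.07 for all genes with at least 20 reads. The 10 variant genes with as many reads had intervals that excluded 0 in every case, 4 above and 6 below, with a median of -0.41 and a range of -1.45 to 1.66. Scaling by TMM lowers every log2 ratio by 0.11 and median-of-ratios by 0.09, and among the named genes Hist1h1d alone changed sign with it.

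By reads, the most abundant histone mRNAs were variant, and H3f3b led them. H3f3b (chr11:116021912-116027962) and H3f3a (chr1:180800832-180813943) encode the same H3.3 protein, the replacement H3 that is placed at active genes and regulatory regions. H3f3b had 35721 reads before and 12304 after withdrawal. Its FPKM (reads scaled by a length per gene and the library total) was 985 and 555, rank 47 and 81 among all genes. Its log2 ratio was -0.83 (interval -0.86 to -0.80, q = 0.000526 by edgeR), which did not reach the fold limit. H3f3a had 984 and 447 reads (-0.43, interval -0.59 to -0.27), so both H3.3 genes were lower in CPM at week-3.

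H3f3c, the processed copy, was called lower with 49 and 11 reads (-1.45, interval -2.54 to -0.48, q = 0.0203 by edgeR). Only 43.3% of its windows of 100 bases occur in no other gene, and it shares most with H3f3a, so its reads may belong to the parent gene. H3f3aos overlaps H3f3a on the other strand and had 7 and 1 reads, and without strand in the counting the reads of the pair cannot be told apart.

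The variant H2A genes split. H2afz (chr3:137864487-137866922) encodes H2A.Z, the variant found around transcription start sites, and had 12623 and 10018 reads with an FPKM of 512 and 664 (log2 ratio 0.38, interval 0.34 to 0.41). H2afv encodes the second form of H2A.Z and had 2535 and 927 reads (-0.74, interval -0.85 to -0.63). The share of H2afz in the reads of this pair therefore went from 83.3% (exact binomial interval 82.7 to 83.9) to 91.5% (91.0 to 92.0). Neither gene was called at the fold limit of 2.

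H2afy encodes macroH2A1, a variant with a large globular domain that is enriched on silent chromatin, and had 8620 and 7076 reads (0.42, interval 0.38 to 0.47). H2afy2 encodes macroH2A2 and was called higher, with 14 and 27 reads (1.66, interval 0.68 to 2.70, q = 0.00925 by edgeR). H2afy2 overlaps Aifm2, which had 22 and 46 reads, so the source of the few reads is uncertain. H2afj, an H2A close in sequence to the replicative form, had 1141 and 965 reads (0.47), and H2afx had 1371 and 638 (-0.39, interval -0.53 to -0.26).

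H1f0 encodes the linker histone H1.0, known to accumulate in cells that leave the cycle. It had 1217 and 377 reads, an FPKM of 83.7 and 42.4, and a log2 ratio of -0.98 (interval -1.15 to -0.81, q = 0.000117 by edgeR). This was just inside the fold limit, and H1f0 was called lower under both other scalings. H1fx had 8 and 4 reads, H2afy3 had 0 and 1, and H1fnt, H1foo, H2afb1, H2afb2 and H2afb3 had no read. These last 5 are known from the germ line, as are the clustered Hist1h1t, Hist1h2aa and Hist1h2ba, which had 1 read among them.

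**Figure D2:**
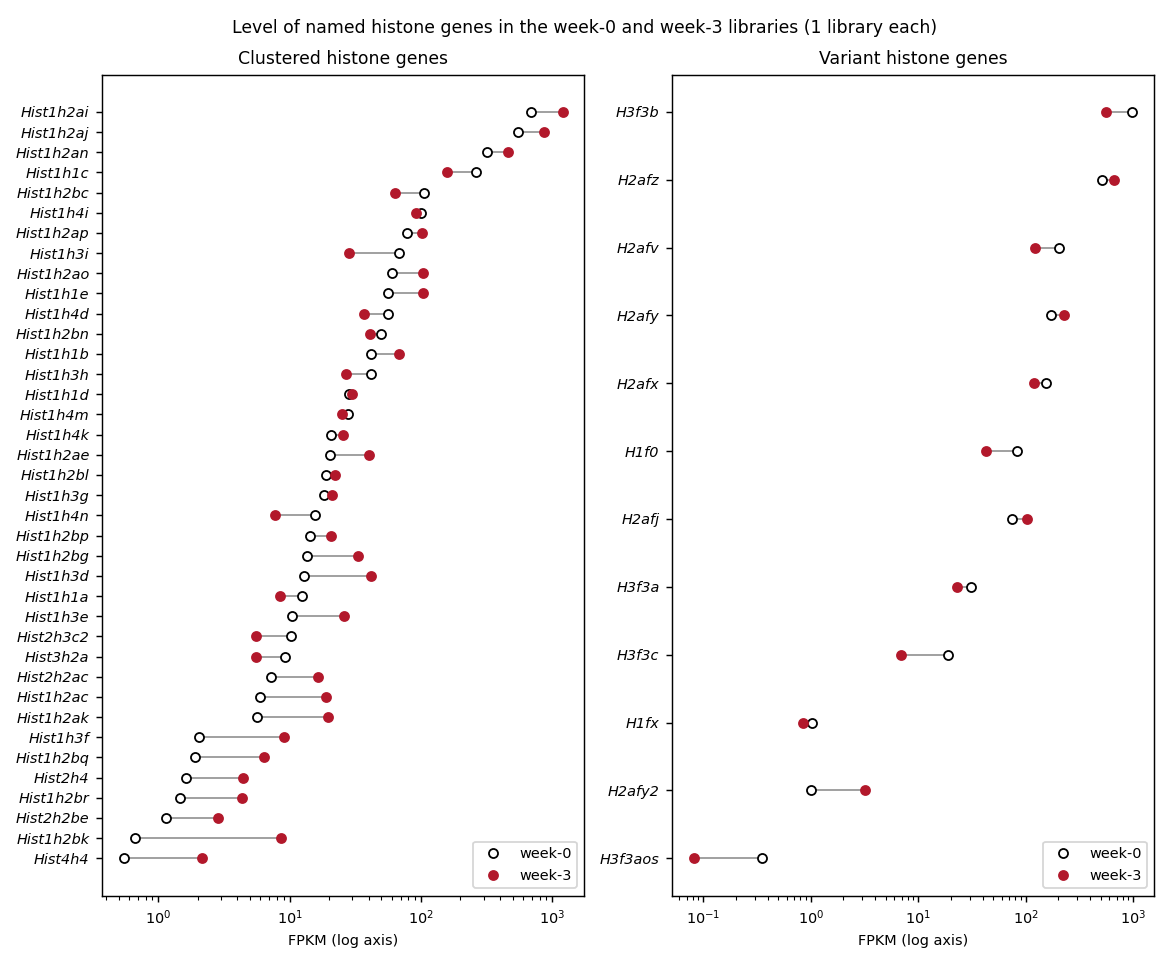
FPKM of the named clustered (left) and variant (right) genes with reads in both libraries, on a log axis, with the week-0 library as open and the week-3 library as filled circles. Hist1h2ai (689 and 1196) and H3f3b (985 and 555) head the panels, and the clustered genes with a clear gain at week-3 lie mainly in the lower part of the left panel.

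The deposited FPKM of Hist1h2ai and Hist1h2aj exceeded that of every variant gene at week-3, but this order depends on the gene lengths used. For H2afz the FPKM fits a length of 3880 bases, while its longest GENCODE M21 transcript has 1069. For H3f3b these lengths were 5708 and 2514 bases. On the shorter lengths the FPKM of both variant genes would be higher. Hist1h2ai (chr13:21716422-21716814) had 1720 and 1827 reads on a model of 393 bases, an FPKM of 689 and 1196, and rank 75 and 39 among all genes. Its log2 ratio was 0.80 (interval 0.70 to 0.89), which q placed under 0.05 (0.00123 by edgeR) and the fold limit left uncalled. Hist1h2aj had 1227 and 1192 reads (0.67), Hist1h2an 795 and 703 (0.53), Hist1h2ap 242 and 190 (0.36) and Hist1h2ao 183 and 193 (0.79). All 5 encode replicative H2A, except that the annotation lists Hist1h2aj as an unprocessed pseudogene, and all 5 had intervals above 0, although that of Hist1h2ap held 0 with TMM (-0.03 to 0.53) and median-of-ratios scaling.

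These 5 genes held 93.5% of the week-0 and 94.3% of the week-3 reads of clustered H2A, and they are also among the least unique in sequence. From 7.35% (Hist1h2ao) to 16.7% (Hist1h2an) of their windows of 100 bases, the read length, occur in no other gene of the annotation, and each shares windows with at least 20 other genes. How reads with several placements were counted is not given in the sources used here. The 5 clustered genes without any unique window (Hist2h2aa1, Hist2h2aa2, Hist2h3b, Hist2h3c1 and the protein-coding copy of Hist2h2bb) had no read in either library, whereas 5 of the 63 with at least 1 unique window had none. Hist2h2aa2 is overlapped by Gm20632, which had 43 and 21 reads.

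**Figure D3:**
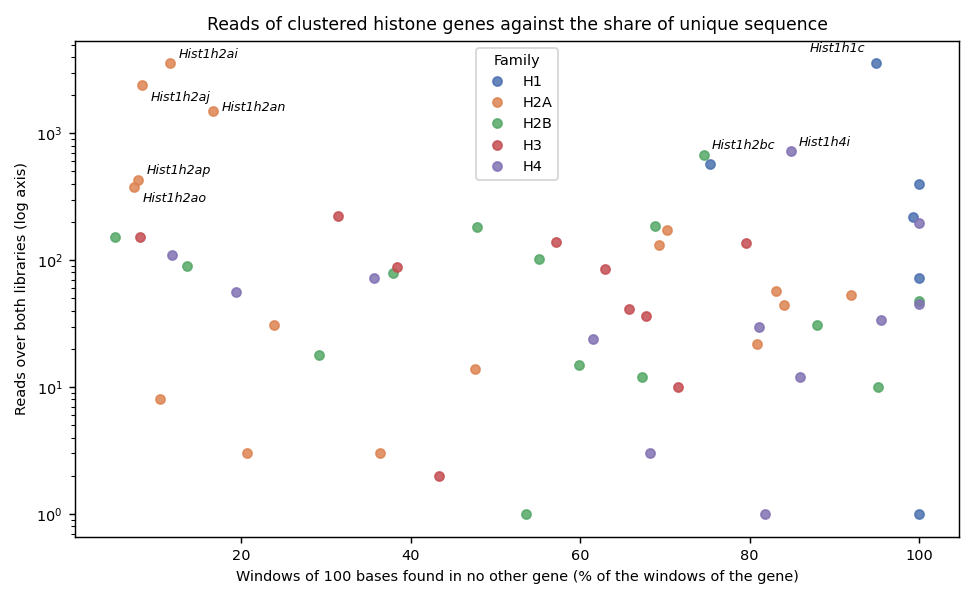
Reads over both libraries (log axis) of each clustered gene with a read against the percent of its windows of 100 bases found in no other gene, coloured by family. The 5 H2A genes with the most reads stand at the upper left, under 17% unique, while Hist1h1c at the upper right is 94.9% unique.

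The clustered H1 genes divided between Hist1h1c and the others. Hist1h1c (chr13:23738808-23740367), which encodes H1.2, had 2602 and 959 reads (log2 ratio -0.73, interval -0.84 to -0.62, q = 0.00361 by edgeR), short of the fold limit. Its FPKM was 262 and 158. In contrast, Hist1h1e (H1.4) had 267 and 303 reads (0.89, interval 0.65 to 1.13) and Hist1h1b (H1.5) had 198 in each library (0.71, interval 0.42 to 1.001), so both were higher in CPM at week-3 beyond counting error.

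Hist1h1d (H1.3) had 134 and 86 reads (0.07, and -0.04 with TMM scaling), and Hist1h1a (H1.1) had 51 and 21 (-0.57, interval -1.38 to 0.19). Neither ratio was outside counting error. Of all H1 reads, Hist1h1c and H1f0 made up 58.1% and 27.2% at week-0 and 49.2% and 19.3% at week-3. The remaining clustered H1 genes went from 14.5% (interval 13.5 to 15.6) to 31.2% (29.2 to 33.4), which exceeds the counting error of both shares.

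The H2B gene with the most reads was Hist1h2bc, with 496 and 182 (-0.74, interval -0.99 to -0.49, q = 0.0108 by edgeR), against the direction of the H2B genes that were called. Hist1h2bn had 121 and 61 reads (-0.28, interval -0.75 to 0.18), and Hist1h2bp had 99 and 88 (0.54, interval 0.11 to 0.97). Hist1h2bl had 46 and 33 reads (0.23, interval -0.46 to 0.91). The H2B family therefore held members on both sides of 0.

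H4 is encoded by many genes for the same protein, and Hist1h4i was the main one, with 464 and 258 reads (-0.14, interval -0.36 to 0.09). Hist1h4d had 140 and 56 reads (-0.61, interval -1.09 to -0.16), Hist1h4m 71 and 39 (-0.15) and Hist1h4k 41 and 31 (0.31). Hist1h4n had 43 and 13 reads (-1.02, interval -2.04 to -0.09), but q was 0.158 (edgeR). Of the clustered H4 genes named here, Hist1h4d and Hist1h4n had intervals below 0, Hist4h4 and Hist2h4 above 0, and the others held 0.

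The other 3 H3 genes with at least 50 reads were lower or near 0. Hist1h3h had 109 and 43 reads (-0.63, interval -1.18 to -0.11), Hist2h3c2 had 67 and 22 (-0.90, interval -1.66 to -0.18) and Hist1h3g had 50 and 35 (0.20). Hist3h2a, an H2A gene away from the main clusters that is overlapped by Trim17 (1 read in each library), had 126 and 46 reads (-0.74, interval -1.26 to -0.25). None of these passed the call.

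Summed over the class, clustered genes were higher and variant genes lower in CPM at week-3, but each sum was decided by few genes. The 70 clustered genes held 10046 reads in the first library and 7458 in the second, or 1581 and 1919 CPM (log2 ratio 0.28, interval 0.24 to 0.32). The 18 variant genes held 64290 and 32796 reads, or 10115 and 8438 CPM (-0.26, interval -0.28 to -0.24). The ratio of the clustered to the variant change was 1.46 (log2 0.54, exact conditional interval 0.49 to 0.59). Variants made up 86.5% of the week-0 and 81.5% of the week-3 histone reads, and 44.5% and 32.8% of the summed FPKM. The FPKM shares depend on the deposited gene lengths, which for H2afz and H3f3b exceed the longest transcript and so lower the variant share.

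Without H3f3b, which held 55.6% and 37.5% of the variant reads, the variant sum turned to a log2 ratio of 0.23 (interval 0.20 to 0.26) and the log2 ratio of ratios was 0.05 (interval -0.001 to 0.10). Without the 5 abundant H2A genes the clustered sum turned to -0.10 (interval -0.16 to -0.04), and without clustered genes under 50% unique windows to -0.11. Hist1h1c, with 2602 and 959 reads, was kept in both of these sums and held the most reads in them. Leaving out Hist1h1c alone raised the clustered sum to 0.51. With both H3f3b and the 5 H2A genes left out, the log2 ratio of ratios was -0.33 (interval -0.40 to -0.26). With Hist1h1c left out besides the 5 H2A genes, the clustered sum was 0.26 (3277 and 2394 reads, interval 0.18 to 0.33). This was close to the 0.23 of the variant sum without H3f3b. The sign of the difference between the summed classes thus depended on H3f3b, Hist1h1c and a small set of H2A genes. The medians over genes, 0.45 for clustered and -0.41 for variant genes, count each gene once. The variant median rests on 10 genes that split by family, with medians of 0.40 for H2A (6 genes) and -0.83 for H3 (3 genes), and -0.98 for H1f0. No median was taken with single members left out.

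**Figure D4:**
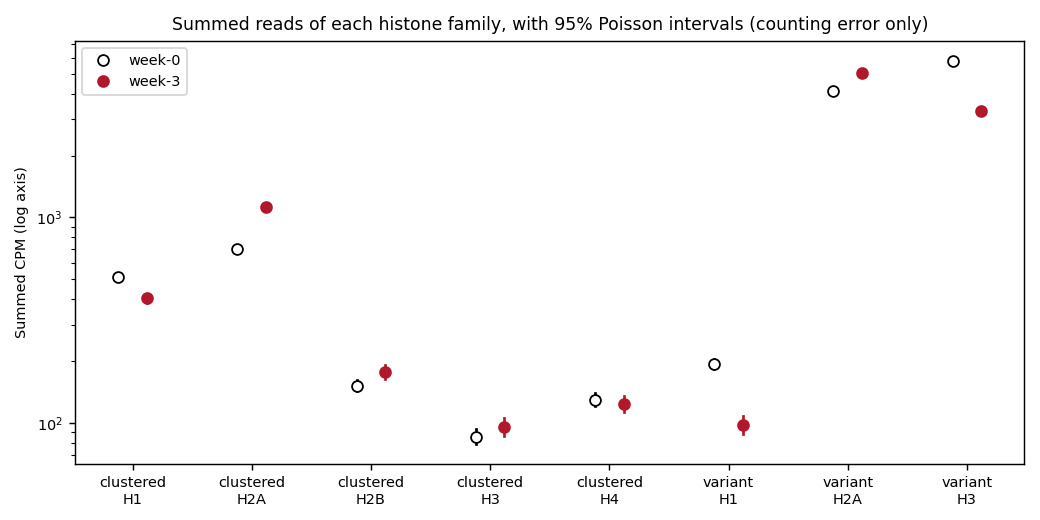
Summed CPM (log axis) of each histone family at week-0 (open) and week-3 (filled), clustered families at the left and variant families at the right, with 95% Poisson intervals that are smaller than the symbol for the larger sums. Clustered H2A and variant H2A stand higher at week-3, and clustered H1, variant H1 and variant H3 lower.

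By family, the clustered H2A sum was higher at week-3 (4459 and 4351 reads, log2 ratio 0.67, interval 0.61 to 0.73) and the clustered H1 sum lower (3252 and 1568, -0.34, interval -0.43 to -0.26), but H1 without Hist1h1c was higher (650 and 609, 0.62, interval 0.45 to 0.78). Clustered H2B summed to 965 and 689 reads (0.22, interval 0.08 to 0.37), clustered H3 to 544 and 371 (0.16, interval -0.04 to 0.35) and clustered H4 to 826 and 479 (-0.08, interval -0.24 to 0.09). With TMM or median-of-ratios scaling the interval of H2B held 0 and that of H4 lay below 0. The sums of the core histone families therefore did not move by one factor, but few genes weighed heavily on them. Clustered H2A without its 5 genes with the most reads was at 0.46 (interval 0.21 to 0.71), and Hist1h2bc held 496 and 182 of the H2B reads.

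In the families that have both kinds, the clustered sum had the higher ratio. The ratio of ratios was 1.55 in H1 (interval 1.36 to 1.77), 1.31 in H2A (1.25 to 1.37) and 1.96 in H3 (1.71 to 2.25). For H3, the variant genes made up 85.7% of the summed FPKM before and 77.6% after withdrawal, shares that depend on the deposited gene lengths. The members with the most reads at week-0 were Hist1h1c and H1f0 for H1, Hist1h2ai and H2afz for H2A, and Hist1h3i and H3f3b for H3.

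Most clustered genes lie on chromosome 13, in a pair of blocks. The first block (chr13:21715763-22043676, 24 genes) summed to 5707 and 5179 reads (log2 ratio 0.57, interval 0.52 to 0.62), and the second (chr13:23531050-23934851, 31 genes) to 4054 and 2087 (-0.25, interval -0.33 to -0.17). The first block holds the 5 abundant H2A genes, and its 8 H2A genes had 4205 and 4150 of its reads, while the second holds Hist1h1c. Without Hist1h1c, an alternative chosen after seeing the data, the second block summed to 1452 and 1128 reads and its log2 ratio turned to 0.35 (interval 0.23 to 0.46). The first block was not summed without the 5 abundant H2A genes, which held 4167 and 4105 of its reads, so its 0.57 rests largely on them. The H2A genes of the second block had 91 and 113 reads (1.02, interval 0.61 to 1.44). H3 genes had the opposite order, with 287 and 88 reads in the first block (-0.996, 2 genes) and 190 and 261 in the second (1.17, interval 0.89 to 1.45, 7 genes). The H3 genes of the first block, Hist1h3h and Hist1h3i, hold few windows found in no other gene (8.01% and 31.4%). Both share windows with Hist1h3b and Hist1h3d of the second block, so H3 reads of the blocks cannot be separated with certainty. H2B was at 0.75 in the first and at -0.34 in the second, where it turned to 1.22 without Hist1h2bc (61 and 87 reads).

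**Figure D5:**
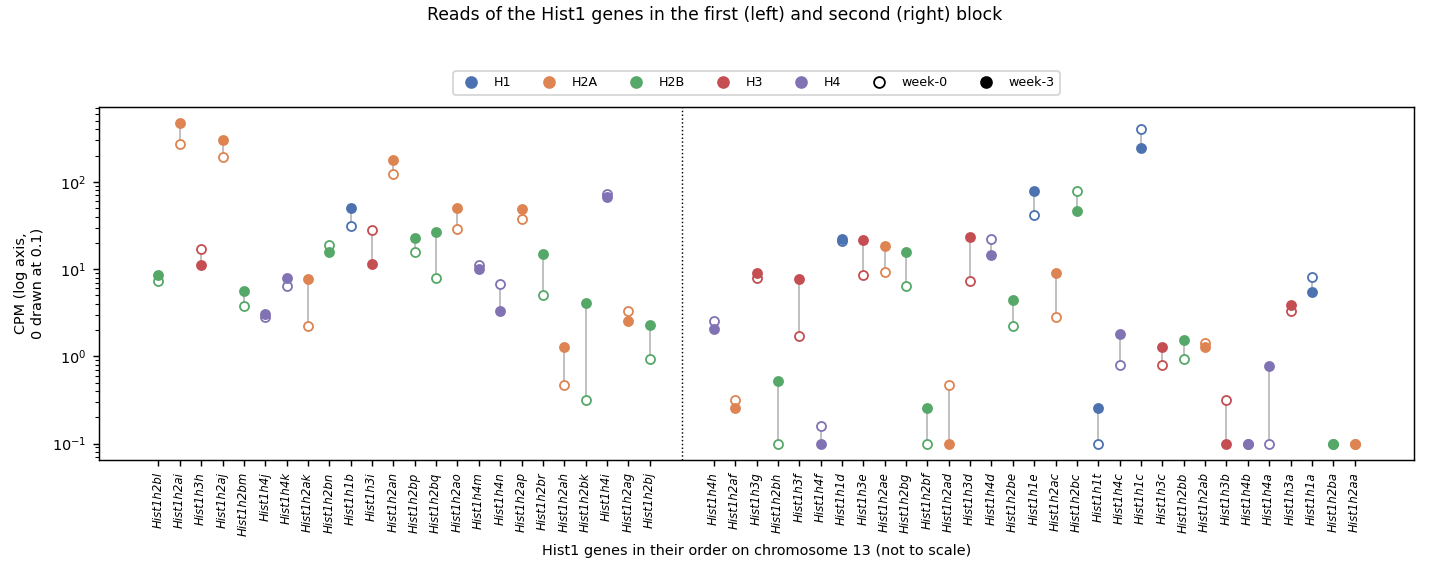
CPM (log axis, a count of 0 drawn at 0.1) of the Hist1 genes in their order on chromosome 13, with the first block left and the second right of the dotted line, open at week-0 and filled at week-3, coloured by family. Filled circles lie above open ones for some genes and below for others in both blocks, for example above at Hist1h2ac and below at its neighbour Hist1h2bc.

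Some clustered genes have annotated transcripts that run on past the stem-loop, which was described on the deposited gene models because the end differed from GENCODE M21 in 15 of the 42 genes with a stem-loop. In 16 genes the deposited model extended at least 50 bases past the stem-loop, and 6 of the 14 that could be tested were called higher (8.11% of all tested genes) and 0 lower. They were Hist2h2ac, Hist1h3d, Hist1h3e, Hist1h3f, Hist2h4, with 1257 bases past the stem-loop, and Hist4h4, with 2445. Of the 19 tested genes with a shorter end, 3 were called higher (Hist1h2ac, Hist1h2bg and Hist1h2bk) and 0 lower. The difference between these counts was not tested. Hist1h1c, with 840 bases past the stem-loop and 2602 and 959 reads, was in the group with the longer end, so the gene with the most reads there was lower in CPM at week-3.

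Promoters were read from RefSeq (GRCm38.p6, 250 bases before to 50 after the start, both strands), where 63 clustered and 15 variant genes were matched. TATAAA was present in 35 of 63 clustered promoters (55.6%), in 1 of 15 variant promoters (6.67%) and in 15.7% of all 27025 genes with a promoter. CCAAT was present in 85.7%, 60.0% and 41.1%. The variant gene with TATAAA was H3f3b, the most abundant variant. Stretches of 30 bases around the motif, in capitals, are shown for H3f3b and 2 clustered genes, Hist1h1e and Hist1h2bg.
H3f3b: gtgcagcgtctcTATAAAtatggaggcgtc
Hist1h1e: agctccgccctaTATAAAcgggcgggcgca
Hist1h2bg: gcatagaacctcTATAAAatggcaagaacg
They lie at chr11:116024514-116024543 (minus strand), chr13:23622568-23622597 (minus) and chr13:23571345-23571374 (plus), with the motif starting 27, 27 and 43 bases before the annotated start. Hist1h2ai, the clustered gene with the highest FPKM, had CCAAT but no TATAAA in its window. A match is a string of letters and was not tested as a site.

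Genes that act on histone mRNA and histone proteins were described from 3 lists. Of 16 genes for the transcription and 3′ end processing of clustered histone mRNA, 1 was called higher and 1 lower, no larger a share than the 8.11% and 10.1% of all tested genes. The gene called higher was Cpsf2, a subunit of the cleavage complex, with 241 and 295 reads (log2 ratio 1.001), short of the fold limit under both other scalings. The gene called lower was Sympk, its scaffold, with 522 and 122 (fell by 1.39 on the log2 scale). The list had a median log2 ratio of 0.43, against 0.09 for all tested genes. Slbp, the stem-loop binding protein, had 1417 and 967 reads (0.16, interval 0.04 to 0.28), and Npat, the coactivator of clustered histone genes, had 139 and 83 (-0.03, interval -0.44 to 0.37).

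Of 23 histone chaperones and exchange factors, 1 was called higher and 1 lower, again no larger a share than among all genes. Hira, which deposits H3.3, was called higher on 24 and 44 reads (1.58, interval 0.83 to 2.37), and Srcap, a subunit of the complex that exchanges H2A.Z into chromatin, was called lower (111 and 29 reads, fell by 1.23 on the log2 scale). Chaf1a, the large subunit of the factor that places replicative H3 and H4 behind the fork, had 113 and 111 reads (0.68, interval 0.29 to 1.07), and Asf1b had 486 and 357 (0.26, interval 0.06 to 0.46). Neither was called, and the median of the list was 0.17.

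Of 21 S phase genes, 4 were called higher and 0 lower (8.11% and 10.1% of all tested genes), with a median of 0.29. They were Rrm2 (247 and 658 reads, 2.12), which makes deoxynucleotides, the cyclin E genes Ccne1 (78 and 142, 1.57) and Ccne2 (21 and 49, 1.93), and Cdc6 (93 and 153, 1.43), which loads the replicative helicase. The helicase subunits Mcm2 to Mcm7 were not called. Ccna2, the cyclin A gene, had 1025 and 388 reads (-0.69, interval -0.86 to -0.52) and Cdk2 had 736 and 357 (-0.33, interval -0.52 to -0.15), both lower in CPM at week-3 and not called.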

How the data were processed

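For each gene the authors deposited counts (whole reads, not normalized) and FPKM. The scale of the FPKM fits a length per gene and the total of reads on genes. Before this, reads were trimmed to at least 25 bases, and paired 100-base reads were mapped to GRCm38 (mm10) with TopHat2 2.0.9 at up to 2 mismatches. The counting tool, annotation release and edgeR dispersion are not given in the sources used here. Reads on genes totalled 6356164 (week-0) and 3886695 (week-3).

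Members and gene lists were chosen with earlier results of these data known. Genes were called on the deposited counts with edgeR 4.0.16 (R 4.3.3, exact test, dispersion 0.01, total-read scaling, genes above 0 in both libraries). Median log2 changes of FPKM used a pseudocount of 0.1. Intervals are exact Clopper-Pearson intervals of the week-3 share of reads, turned into ratios, and for ratios of ratios Fisher's exact conditional intervals. Median-of-ratios factors came from DESeq2 1.42.0. Stem-loops and unique windows came from GENCODE M21, in which Hist1h2bm and Hist1h2bh were not matched by identifier. Protein sequences were not used here. Named genes were every variant gene with a read, clustered genes that were called, held at least 50 reads or had the highest FPKM of their family, called genes of the 3 lists, and Slbp, Npat, Hira, Chaf1a and Asf1b. Procedures were tested on simulated data. Intervals used scipy 1.17.1, tables pandas 2.3.3 and numpy 2.4.6, and plots matplotlib 3.10.9, in Python 3.11.15. Alternatives were other coefficients of variation, scalings, fold limits, filters, pseudocounts and left-out members. A result for 1 further marker gene is not reported here.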

Additional observations from a re-analysis of the deposited data

How the results depend on the processing

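No paired analysis was possible because each time point has 1 library. The variation between mice cannot be estimated from 1 library each, and the value assumed for it decided the number of calls. With a coefficient of 0.2 or 0.4 in place of 0.1, 601 or 29 genes were called higher (1247 with 0.1) and 939 or 87 lower (1548), clustered genes called higher numbered 8 or 0 (13), and clustered genes called lower and variant genes called in either direction 0. With fold limits of 1.5 and 0.67, 2252 genes were called higher and 2097 lower. Among clustered genes 19 were then called higher and 3 lower, and among variant genes 1 higher and 4 lower. With the fold limits and no q, 2191 genes were past the limit upwards and 2495 downwards. Of clustered genes 16 were then higher and 3 lower, and of variant genes 1 higher and 2 lower. TMM and median-of-ratios scaling each called 2 variant genes lower, H1f0 and H3f3c.

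Under TMM and median-of-ratios scaling the log2 ratio of the summed clustered reads was 0.17 and 0.19, of the summed variant reads -0.37 and -0.35, of clustered H1 -0.46 and -0.43 and of clustered H2A 0.56 and 0.58. The summed variant reads reversed to 0.23 without H3f3b. The summed clustered reads were 0.51 without Hist1h1c. In alternatives chosen after seeing the data, the summed clustered reads reversed to -0.11 without genes under 50% unique windows and to -0.10 without the 5 H2A genes with the most reads. Hist1h1c was kept in both, and with it left out besides the 5 H2A genes the sum was 0.26. The log2 ratio of ratios was 0.78 without Hist1h1c and 0.050 without H3f3b. Among alternatives chosen after seeing the data it was 0.15 without genes under 50% unique windows, 0.16 without the 5 H2A genes, -0.33 without both these and H3f3b, 0.63 within H1, 0.39 within H2A and 0.97 within H3. The median changes of both classes kept their sign under every pseudocount, filter and scaling tried, from 0.45 to 0.56 for clustered and from -0.51 to -0.32 for variant genes. Also chosen after seeing the data, the second Hist1 block reversed to 0.35 without Hist1h1c, and its H2B genes to 1.22 without Hist1h2bc.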

Other observations

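Hist1h2ac and Hist1h2bc lie next to each other on opposite strands in the second block, and their reads went in opposite directions, with 18 and 35 for Hist1h2ac (log2 ratio 1.67, interval 0.81 to 2.58) and 496 and 182 for Hist1h2bc (-0.74, interval -0.99 to -0.49). The pair was singled out after its values were seen. On chromosome 6, Hist4h4 and H2afj lie at chr6:136801553-136804415 and chr6:136808244-136810074, a clustered gene with 10 and 24 reads (1.97) beside a variant gene with 1141 and 965 (0.47).

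The 39 clustered genes with at least 50% unique windows summed to 5055 and 2844 reads (-0.12, interval -0.19 to -0.05). Hist1h1c alone held 2602 and 959 of these reads (-0.73), so this sum rests largely on 1 gene. Of the 32 genes that could be tested, 10 were called higher and 0 lower (8.11% and 10.1% of all tested genes). The 29 genes under 50% summed to 4967 and 4590 (0.60, interval 0.54 to 0.65), with 3 called higher and 1 lower of 20 tested. The difference between these counts was not tested.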
